A study of Caenorhabditis elegans with 16 samples.

Results

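Fatty acid beta-oxidation genes were examined in RNA sequencing data from whole wild-type (N2) Caenorhabditis elegans. The genes were chosen by name from the symbols of acyl-CoA synthetases (acs), carnitine palmitoyltransferases (cpt), acyl-CoA dehydrogenases (acdh), enoyl-CoA hydratases (ech), acyl-CoA oxidases (acox), 3-hydroxyacyl-CoA dehydrogenases (hacd) and peroxisomal hydratases (maoc), together with kat-1, acaa-2, daf-22, dhs-28, ctl-2, hosl-1 and atgl-1. The rule fits 67 annotated genes, and 23 of the 3698 genes with deposited values meet it. Of these, 21 have values at 20°C, 4 after heat shock and 2, acdh-9 and acox-1.2, under both conditions. The comparison was between worms kept on OP50 bacteria (fed) and worms moved off food as L4 larvae for 24 h, at the end of larval life (fasted), either at 20°C (basal) or after 30 min at 35°C (heat shock). Each of the 4 groups had 4 libraries, and all groups carried the same wild-type genotype with no transgene. The study's text describes collection straight after the fast, whereas the sample labels describe recovery on food for 24 h before collection, so the time since feeding is uncertain for every fasted value. Nothing in the sources states that the libraries came from separate cultures, and the p-values therefore measure only the spread between these libraries.

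Beta-oxidation shortens the acyl chain of a fatty acid from its carboxyl end. An acyl-CoA synthetase first joins the fatty acid to coenzyme A, and for import into mitochondria carnitine palmitoyltransferases exchange the coenzyme A for carnitine and back. A dehydrogenase in mitochondria, or an oxidase in peroxisomes, then adds a double bond, after which a hydratase, a second dehydrogenase and a thiolase complete the round. In worms the nuclear receptor NHR-49 is known to induce several of these genes in animals without food, and acs-2 is the gene most often used to report that response. Peroxisomal beta-oxidation in worms also shortens the side chains of ascaroside pheromones.

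Deposited values cover the genes whose unadjusted p in the authors' comparison was under 0.05, that is 2666 genes at 20°C and 1442 after heat shock. Listing was therefore decided by the same contrast that is described here, and being listed is not a finding. Libraries held 15859001 to 26398842 reads, as recovered from the FPKM values, with a median of 18835699. Of these reads, the listed genes held 14.2% to 16.1% at 20°C and 17.3% to 22.99% after heat shock. After heat shock, fasted replicate 4 had 18.8% of its reads in listed genes and stood nearer to the fed libraries (17.3% to 18.6%) than to the other fasted libraries (20.96% to 22.99%). Since whole worms were sequenced, fewer cells of a type and less RNA per cell cannot be told apart.

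By family, values at 20°C were at hand for 5 of 22 acyl-CoA synthetases, 3 of 6 carnitine palmitoyltransferases, 4 of 13 acyl-CoA dehydrogenases, 4 of 10 enoyl-CoA hydratases and 5 of 11 peroxisomal genes. Neither the 3-hydroxyacyl-CoA dehydrogenase hacd-1 and the thiolases kat-1 and acaa-2, which close a round of oxidation, nor the lipases atgl-1 and hosl-1, which release fatty acids from fat droplets, were listed in either comparison. Among the peroxisomal genes, the catalase ctl-2, the thiolase daf-22, the dehydrogenase dhs-28, the hydratase maoc-1 and the oxidase acox-1.5 were not listed. Not being listed means only that the authors' unadjusted p was not under 0.05 or was not computed, and no value is given for these genes. The 23 genes are spread over the chromosomes, with 6 on chromosome I, 4 on II, 3 on III, 4 on IV, 4 on V and 2 on X.

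At 20°C, 5 of the 21 genes changed with fasting. The acyl-CoA synthetase gene acs-2 fell, and the genes ech-7 and ech-9, the acyl-CoA synthetase gene acs-1 and the dehydrogenase gene acdh-1 rose. Calls rest on edgeR's quasi-likelihood test at an adjusted p under 0.05, with the adjustment running over all genes that the authors had tested. Of all listed genes, 13.8% were called at 20°C by the same rule, 10.8% higher and 3.0% lower in fasted worms. In counts, 288 listed genes were called higher and 80 lower with the authors' size factors, against 156 and 153 with TMM factors over the listed genes and 143 and 603 with DESeq2 size factors over the listed genes. These scalings moved the median log2 fold change of all listed genes by -0.19 and -0.39, and ech-6 and acox-1.1 were the genes among the 21 whose sign turned, from higher to lower, with the second of them. The calls for acs-2 and ech-7 held under both of these scalings, whereas acs-1, acdh-1 and ech-9 were called under neither. Both scalings took their factors from listed genes alone, all of them selected for a difference between fed and fasted worms. As more of these genes were higher than lower, such factors move values downwards by construction. Calls lost or gained and signs turned under them therefore cannot decide which scaling is right. Called lower with TMM factors were also acs-22 and acox-1.2, and with DESeq2 size factors over the listed genes these and acs-20, cpt-1, cpt-6, acdh-12, acox-1.4 and acox-1.6. Calls given for single genes are those with the authors' size factors unless another scaling is named. Among the 21 genes 11 had a higher and 10 a lower mean in fasted worms (62.5% of all genes listed at 20°C were higher), and their log2 fold changes had a median of 0.35 beside 0.57 for all listed genes. The main test was unpaired. The replicate block, an alternative that takes same-numbered libraries as pairs, called 8 of the 21 (25.7% of all listed genes), and DESeq2 called 12 (32.9%).

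**Figure D1:**
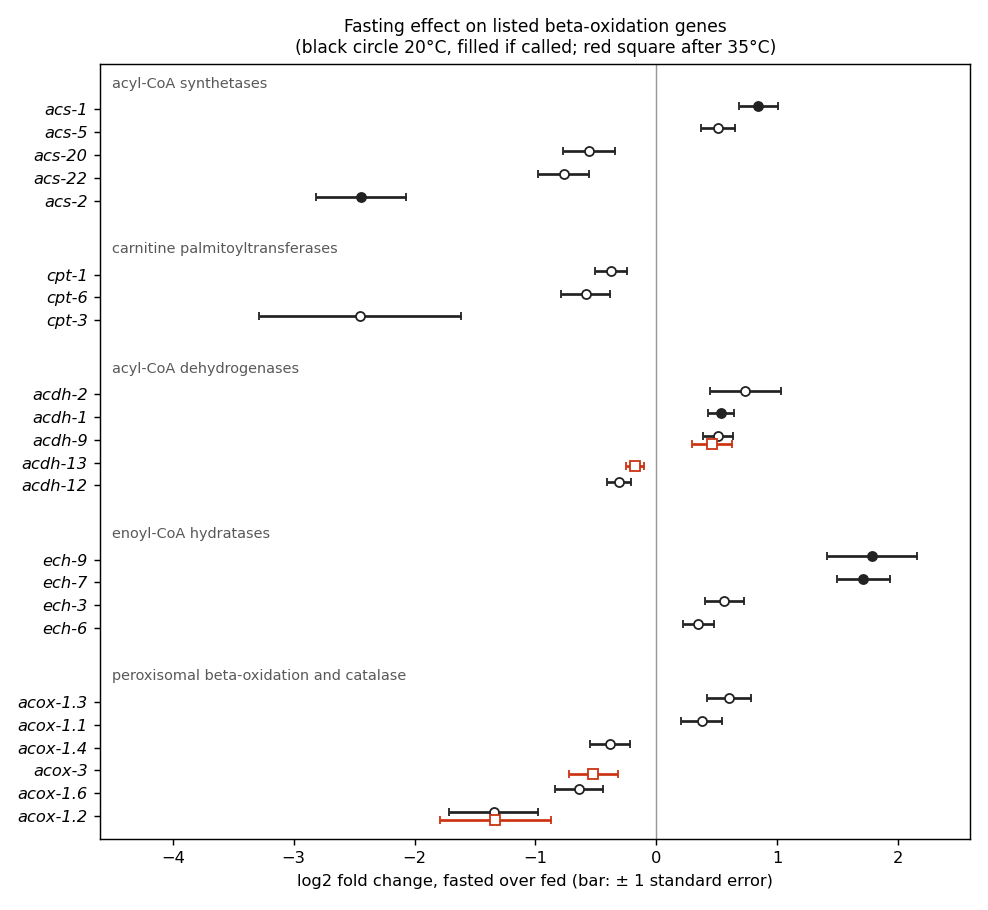
Log2 fold change of fasted over fed worms (horizontal axis) for each listed beta-oxidation gene, grouped by enzyme family, with bars of 1 standard error. Black circles are values at 20°C, filled where called, and red squares are values after 35°C. The synthetases acs-2 at -2.44 and acs-1 at 0.84 stand on opposite sides of 0, while ech-6 and acox-1.1 change sign under DESeq2 size factors over the listed genes.

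The gene acs-2 (F28F8.2, plus strand of chromosome V, 15567392 to 15569889 in WBcel235) encodes an acyl-CoA synthetase that activates long-chain fatty acids, and it was lower in fasted than in fed worms at 20°C. Its normalized counts were 439.8, 545.4, 423.3 and 699.5 in the fed libraries, given in replicate order here and for every gene, and 130.1, 31.6, 97.6 and 125.5 in the fasted libraries. Every fasted library was far below every fed library, and fasted replicate 2 was the lowest of all. The mean fell from 527 ± 127 to 96.2 ± 45.4 (SD, n = 4 each), which is 5.48-fold lower. On the log2 scale acs-2 fell by 2.44 with a standard error of 0.37, and edgeR gave an adjusted p of 0.010. An exact two-sided permutation test of the mean log2 normalized count gave p = 0.029, the smallest value that 4 libraries against 4 allow. Every gene whose groups do not overlap reaches it, which held for 15 of the 21 genes and 52.9% of all listed genes. As acs-2 was listed by the same contrast, this p is no separate support. With each library left out in turn, edgeR's adjusted p for acs-2 stayed between 0.0038 and 0.035. In FPKM, which is per gene length, acs-2 ranked 10 of the 21 genes in fed worms at 13.1 ± 2.93 and 18 in fasted worms at 2.36 ± 1.097 (SD, n = 4 each). After heat shock acs-2 was not listed, and its level there was not analysed here.

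Of the other synthetases, acs-1 rose. The gene acs-1 (F46E10.1, plus strand of chromosome V, 6524989 to 6532091) is known for activating monomethyl branched-chain fatty acids. It had normalized counts of 2324, 2328, 2226 and 3150 in the fed libraries and 4856, 4834, 3293 and 5004 in the fasted libraries. The groups did not overlap, although fed replicate 4 and fasted replicate 3 came close to each other. Its mean rose from 2507 ± 431 to 4497 ± 806 (SD, n = 4 each), with a log2 fold change of 0.84, a standard error of 0.16 and an adjusted p of 0.025 from edgeR. The call for acs-1 held without fed replicate 4 (adjusted p 0.012) and without fasted replicate 3 (0.011), and was lost when any of the other 6 libraries was left out, with an adjusted p of up to 0.087. Its exons share 19 bp with hpo-26 on the opposite strand.

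Values for acs-22 and acs-20, which encode relatives of fatty acid transport proteins known for the barrier of the cuticle, lay lower in fasted worms without passing the test. For acs-22 the normalized counts ran from 878 to 1444 in fed and from 449 to 837 in fasted libraries, so the groups were apart, with a log2 fold change of -0.77 (SE 0.21, adjusted p 0.099 from edgeR). For acs-20 they ran from 179 to 260 in fed and from 113 to 192 in fasted libraries, which overlap, with a log2 fold change of -0.56 (SE 0.22, adjusted p 0.23 from edgeR). The synthetase gene acs-5 went from 722 to 972 in fed libraries to between 1012 and 1294 in fasted libraries, with a log2 fold change of 0.51 (SE 0.14, adjusted p 0.10 from edgeR, and 0.049 under the replicate block). Of the 5 synthetases, 1 was called higher and 1 lower. Summed over the 5, FPKM ran from 109 to 128 in fed and from 112 to 155 in fasted libraries.

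**Figure D2:**
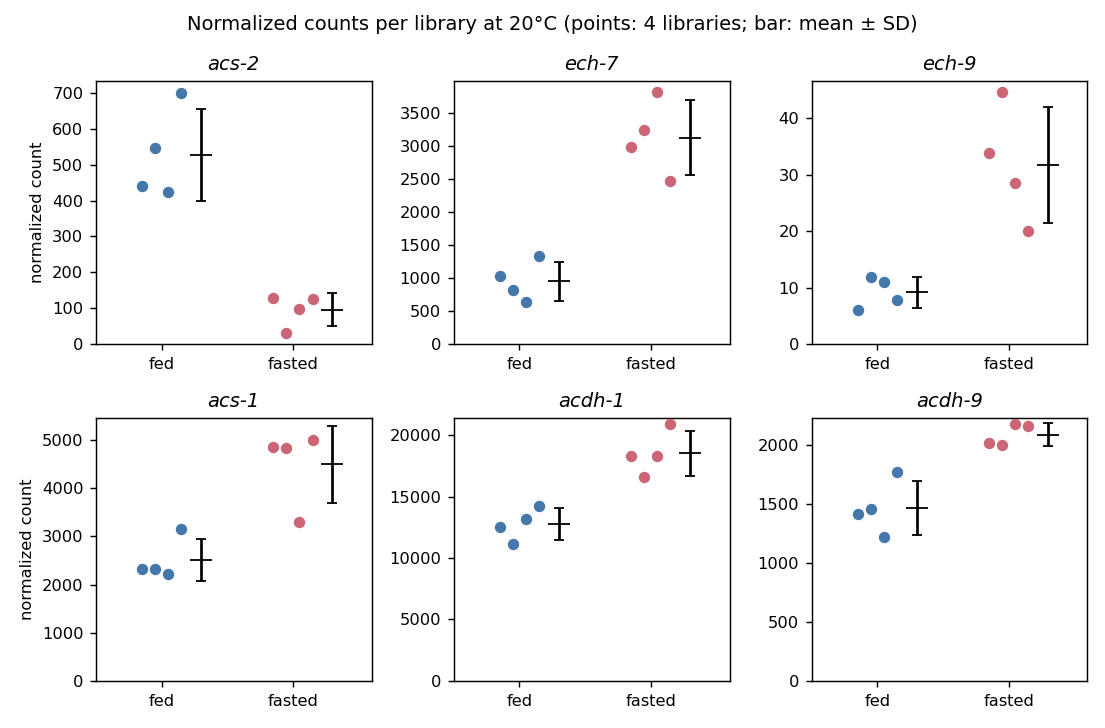
Normalized count (vertical axis, starting at 0) of acs-2, ech-7, ech-9, acs-1, acdh-1 and acdh-9 in fed and fasted worms at 20°C, with a point for each of 4 libraries and the mean ± SD beside them. The fed and fasted libraries do not overlap in any of the 6 panels, and acs-2 is the only one of them that is lower in fasted worms.

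The 3 listed carnitine palmitoyltransferase genes all had lower mean values in fasted worms under each scaling tried. None was called with the authors' size factors, while cpt-1 and cpt-6 were called lower with DESeq2 size factors over the listed genes. For cpt-1, which encodes the carnitine palmitoyltransferase I that controls entry of long-chain acyl groups into mitochondria, normalized counts were 6099, 6587, 5313 and 5622 in fed and 4904, 5358, 3720 and 4240 in fasted libraries. The fasted replicate 2 reached above the lowest fed library, and the log2 fold change was -0.37 (SE 0.13, adjusted p 0.18 from edgeR). The less abundant cpt-6 had 220.8 to 293.5 normalized counts in fed and 117 to 204 in fasted libraries, without overlap (log2 fold change -0.58, SE 0.20, adjusted p 0.18 from edgeR). Very few reads fell on cpt-3, 26 raw counts over the 4 fed and 5 over the 4 fasted libraries, with 2 fasted libraries at 0. Its normalized counts were 12.9, 4.75, 4.98 and 3.91 in fed and 3.01, 0, 1.02 and 0 in fasted libraries, and its adjusted p of 0.18 from edgeR did not pass. Sums over the 3 genes, nearly all of which came from cpt-1, were 104 to 130 FPKM in fed and 73.1 to 101 FPKM in fasted libraries.

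Among the acyl-CoA dehydrogenases, which introduce the double bond in mitochondria, acdh-1 rose. This gene (C55B7.4, plus strand of chromosome I, 6497438 to 6499316) acts in the propionate shunt, a side route that breaks down propionate without vitamin B12, and its promoter is used as a sensor of diet. Its normalized counts were 12551, 11135, 13142 and 14245 in fed and 18268, 16566, 18279 and 20931 in fasted libraries, with no overlap. The mean went from 12769 ± 1296 to 18511 ± 1803 (SD, n = 4 each), a log2 fold change of 0.54 with a standard error of 0.11 and an adjusted p of 0.036 from edgeR. The call for acdh-1 held without fed replicate 4 (adjusted p 0.029) or fasted replicate 2 (0.039) and was lost without any of the other 6 libraries, with an adjusted p of up to 0.11. In FPKM acdh-1 was the most abundant of the 21 genes in fed worms, at 458 ± 36.6, and after fasting, at 654 ± 59.6 (SD, n = 4 each).

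For acdh-9 (F28A10.6, minus strand of chromosome II, 846867 to 848602) the normalized counts were 1419, 1454, 1220 and 1769 in fed and 2017, 1997, 2182 and 2157 in fasted libraries. The groups were apart, and the log2 fold change of 0.51 (SE 0.12) had an adjusted p of 0.057 from edgeR, or 0.042 under the replicate block. For acdh-2 the spread was wider, from 264 to 680 in fed and from 474 to 925 in fasted libraries, with a log2 fold change of 0.74 (SE 0.30, adjusted p 0.24 from edgeR). Under the replicate block, edgeR's adjusted p for acdh-2 was 0.019. The remaining dehydrogenase gene, acdh-12, had 3486 to 4138 normalized counts in fed and 2746 to 3231 in fasted libraries (log2 fold change -0.31, SE 0.10, adjusted p 0.15 from edgeR). It shares 80 bp of exon with E04F6.4 on the opposite strand.

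The 4 enoyl-CoA hydratase genes, whose products add water to the double bond, all had higher means in fasted worms with the authors' size factors, although ech-6 came out at -0.049 on the log2 scale with DESeq2 size factors over the listed genes. The gene ech-7 (Y105E8A.4, minus strand of chromosome I, 14367579 to 14369773) had normalized counts of 1030, 814, 640 and 1329 in fed and 2983, 3234, 3818 and 2460 in fasted libraries. Even the lowest fasted library was well above the highest fed library. The mean rose from 953 ± 297 to 3124 ± 564 (SD, n = 4 each), 3.28-fold, with a log2 fold change of 1.71 (SE 0.22) and an adjusted p of 0.0045 from edgeR. In FPKM ech-7 went from rank 5 of the 21 genes in fed worms, at 60.8 ± 17.9, to rank 3 in fasted worms, at 198 ± 41.0 (SD, n = 4 each).

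The gene ech-9 (F01G10.3, minus strand of chromosome IV, 10233320 to 10235329) changed by a similar factor at a far lower level. It had normalized counts of 5.97, 11.9, 10.96 and 7.82 in fed and 33.8, 44.6, 28.5 and 20.0 in fasted libraries, from 35 and 136 raw counts in all. The mean rose from 9.16 ± 2.75 to 31.7 ± 10.3 (SD, n = 4 each), with a log2 fold change of 1.78, a standard error of 0.37 and an adjusted p of 0.037 from edgeR. The call for ech-9 was lost without any 1 of the 8 libraries, where the adjusted p ran from 0.051 to 0.11. The counts of ech-3 were 134 to 160 in fed and 185 to 257 in fasted libraries, without overlap (log2 fold change 0.56, SE 0.16, adjusted p 0.12 from edgeR). It shares 123 bp of exon with F43H9.3 on the opposite strand. For ech-6, a hydratase of the propionate shunt, the counts overlapped, with 5724 to 7250 in fed and 6580 to 9205 in fasted libraries (log2 fold change 0.35, SE 0.13, adjusted p 0.21 from edgeR).

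None of the 5 acyl-CoA oxidase genes listed at 20°C was called, and their means lay on either side of 0. These enzymes carry out the opening step of peroxisomal beta-oxidation. Of these genes, acox-1.1, acox-1.2, acox-1.3 and acox-1.4 (F08A8.1 to F08A8.4) lie side by side on the plus strand of chromosome I, from 12938555 to 12954015, in that order. By the deposited gene bounds, the gaps between them are 60 and 361 bp, and the last pair overlaps by 75 bp. These neighbours are paralogs, so reads may be shared among them and their values are uncertain to that extent, and acox-1.4 also shares 35 bp of exon with F08A8.8 on the opposite strand.

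Within this row of genes, values for acox-1.2 and its direct neighbours had opposite signs. The normalized counts of acox-1.2 were 302, 156, 644 and 356 in fed and 162, 145, 101 and 166 in fasted libraries. Fed replicate 2 fell inside the fasted range, and fed replicate 3 was far above the other fed libraries. Its log2 fold change was -1.34 (SE 0.37) with an adjusted p of 0.095 from edgeR. Without fed replicate 2 the log2 fold change of acox-1.2 was -1.59 with an adjusted p of 0.033 from edgeR, and without fed replicate 3 it was -0.92 with an adjusted p of 0.19. For acox-1.3 the normalized counts were 148 to 164 in fed and 200 to 302 in fasted libraries, without overlap (log2 fold change 0.60, SE 0.18, adjusted p 0.13 from edgeR).

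Among the others, acox-1.1 had 311 to 514 normalized counts in fed and 510 to 601 in fasted libraries, and its log2 fold change of 0.38 (SE 0.17, adjusted p 0.31 from edgeR) turned to -0.0063 with DESeq2 size factors over the listed genes. For acox-1.4 the counts were 296 to 367 in fed and 202 to 295 in fasted libraries, which were just apart (log2 fold change -0.38, SE 0.16, adjusted p 0.28 from edgeR). The summed FPKM of the 4 genes was 31.5 ± 6.34 in fed and 28.8 ± 3.003 in fasted libraries (SD, n = 4 each). Of that sum, acox-1.2 made up 27.4% ± 10.4 in fed and 12.2% ± 1.46 in fasted animals, and acox-1.1 made up 33.5% ± 5.01 and 46.6% ± 3.07. The share of acox-1.3 was 13.1% ± 3.57 in fed and 20.3% ± 1.90 in fasted worms, and that of acox-1.4 was 26.1% ± 3.99 and 21.0% ± 1.77. These shares do not depend on a size factor, and they were not tested. The fifth oxidase gene, acox-1.6 on chromosome X, had 118 to 172 normalized counts in fed and 82.3 to 108 in fasted libraries (log2 fold change -0.64, SE 0.20, adjusted p 0.14 from edgeR).

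**Figure D3:**
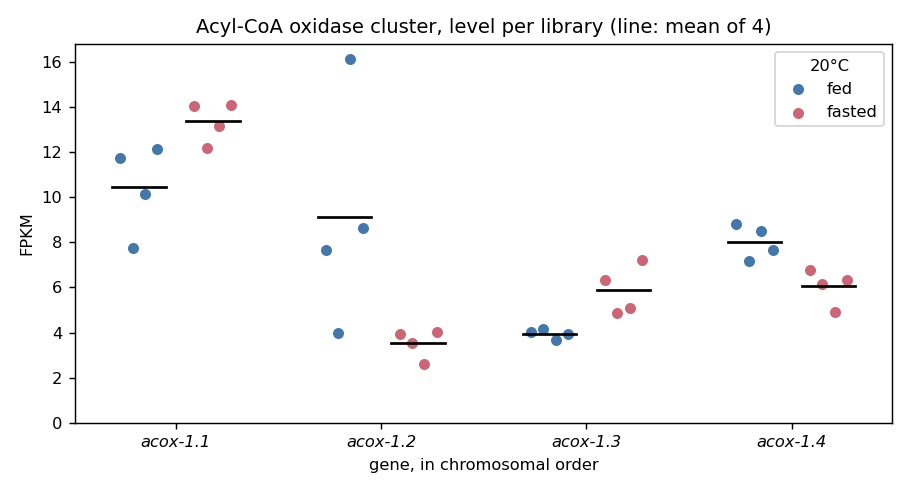
FPKM (vertical axis, starting at 0) of acox-1.1 to acox-1.4 in the order in which they lie on the chromosome, with a point per library and a line at the mean of 4, for fed (blue) and fasted (red) worms at 20°C. Fed values of acox-1.2 spread from 3.99 to 16.1 FPKM, and its fasted values lie between 2.59 and 4.03 FPKM.

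Fed and fasted libraries did not overlap at 20°C for 15 of the 21 genes, 8 of them higher and 7 lower in fasted worms, beside 52.9% of all listed genes, 33.7% higher and 19.2% lower. The libraries of a group also differed from each other in the same direction over many of the genes. Over the 11 genes with higher means in fasted worms, the median level relative to the gene's own mean was -0.08 on the log2 scale in fed replicate 4 and between -0.46 and -0.28 in the other fed libraries. Over the 10 genes with lower means, it was -0.72 in fasted replicate 3 and between -0.26 and -0.06 in the other fasted libraries. Genes that were higher in fasted worms had exonic lengths of 811 to 2420 bp with a median of 1640 bp, and those that were lower had 2049 to 2806 bp with a median of 2200.5 bp. The medians over all genes listed at 20°C were 1164 bp for higher and 1503 bp for lower genes, and the part of length in the values was not tested.

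**Figure D4:**
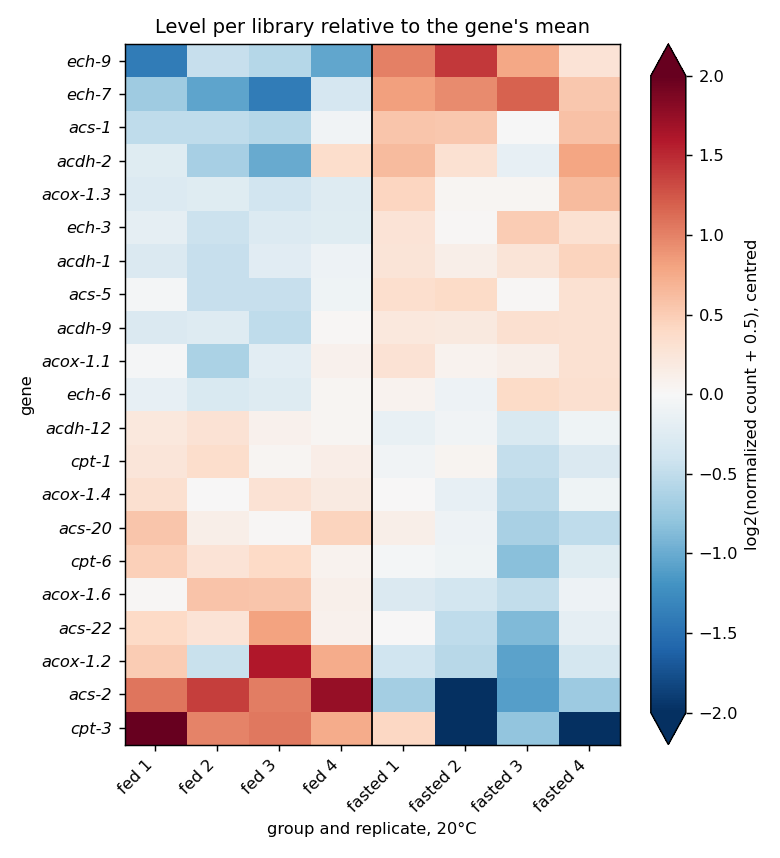
Level of each of the 21 genes (rows) in each library at 20°C (columns), as log2(normalized count + 0.5) minus the gene's mean over the 8 libraries, with red for higher and blue for lower. Colours stop at 2 on either side, and the vertical line separates fed from fasted libraries. Across the lower rows fasted replicate 3 is the bluest fasted column, with a median of -0.72 over the 10 genes that are lower in fasted worms.

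After heat shock, 4 genes had values and none was called (0.0% of all 1442 listed genes were called by edgeR). The 4 had an unadjusted p under 0.05 in edgeR, as did 78.5% of listed genes, and DESeq2 and limma called none of the 4 (3.54% and 0.0693% of listed genes). For acdh-9 the normalized counts were 1222, 1257, 1132 and 1120 in fed and 1492, 2199, 1699 and 1131 in fasted libraries. Fasted replicate 4 lay among the fed libraries, and the log2 fold change was 0.46 (SE 0.17, adjusted p 0.55 from edgeR), or 0.60 with an adjusted p of 0.14 without that library. For acox-1.2 they were 113, 195, 359 and 119 in fed and 54.1, 71.6, 45.5 and 140.5 in fasted libraries. Here too fasted replicate 4 lay among the fed libraries, and the log2 fold change was -1.33 (SE 0.46, adjusted p 0.53 from edgeR), or -1.78 with an adjusted p of 0.20 without it. Without fed replicate 3, the log2 fold change of acox-1.2 after heat shock was -0.87.

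The other pair of genes listed after heat shock was not listed at 20°C. The acyl-CoA dehydrogenase gene acdh-13 had normalized counts of 1090, 1140, 1201 and 1216 in fed and 965, 1009, 1051 and 1088 in fasted libraries, which were just apart. Its log2 fold change was -0.18 (SE 0.08, adjusted p 0.64 from edgeR). The acyl-CoA oxidase gene acox-3 had 279.6, 207.4, 190.4 and 244.2 in fed and 169.5, 115.6, 169.9 and 187 in fasted libraries, which were just apart (log2 fold change -0.52, SE 0.20, adjusted p 0.59 from edgeR). Libraries of the groups were thus apart in 2 of the 4 genes, both lower (35.0% of all listed genes were apart, 17.6% lower), and 1 of the 4 had a higher mean in fasted worms (53.4% of listed genes). Over the 4 the median log2 fold change was -0.35 beside 0.20 for all listed genes after heat shock.

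Both genes listed under both conditions could be asked whether fasting acted differently after heat shock. The difference in log2 fold change, heat shock minus basal, was -0.05 for acdh-9 (95% interval -0.55 to 0.45) and 0.01 for acox-1.2 (95% interval -1.38 to 1.41), with an adjusted p of 0.999 for each in edgeR's interaction test, which called 3.41% of the 410 shared genes. The intervals are wide, above all for acox-1.2, and do not show that the effects were alike. The 410 shared genes were also selected for a difference with fasting at each temperature. Genes that respond at a single temperature are thus mostly left out, which limits what this test can show. In FPKM, acdh-9 stood at 56.9 ± 7.94 in fed and 79.9 ± 5.12 in fasted worms at 20°C, and at 46.8 ± 2.77 and 63.6 ± 16.9 after heat shock (SD, n = 4 each). For acox-1.2 the FPKM was 9.11 ± 5.09 in fed and 3.53 ± 0.659 in fasted worms at 20°C, and 5.06 ± 3.04 and 1.98 ± 1.12 after heat shock (SD, n = 4 each). The level after heat shock relative to 20°C was thus 0.82 in fed and 0.80 in fasted worms for acdh-9, and 0.56 in each for acox-1.2. The 2 temperatures were normalized separately, and these ratios were not tested.

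**Figure D5:**
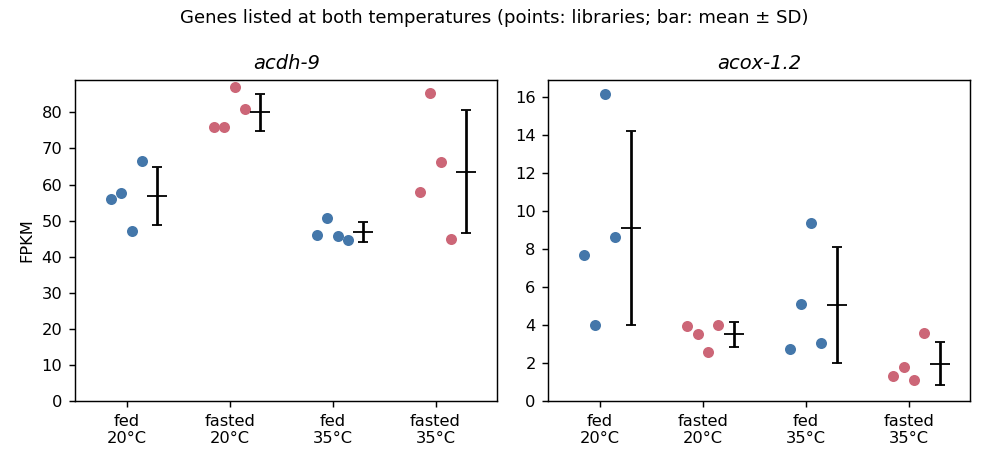
FPKM (vertical axis, starting at 0) of acdh-9 and acox-1.2 in fed and fasted worms at 20°C and after 35°C, with a point per library and the mean ± SD of 4. In fasted worms after heat shock acdh-9 ranges from 44.98 to 85.3 FPKM, and for acox-1.2 a fed library reaches 16.1 FPKM at 20°C and 9.34 FPKM after heat shock.

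Other genes around beta-oxidation were counted by list. Of 9 genes for lipid binding proteins, 3 were listed at 20°C, with 1 called in each direction. The lysosomal lipid chaperone gene lbp-8 fell from 50.3 ± 27.6 to 5.19 ± 3.43 normalized counts (SD, n = 4 each), a log2 fold change of -3.27 (SE 0.56, adjusted p 0.016 from edgeR). The fatty acid binding protein gene lbp-6 rose from 2239 ± 301 to 4890 ± 947 (SD, n = 4 each), a log2 fold change of 1.13 (SE 0.16, adjusted p 0.0061 from edgeR). After heat shock only lbp-8 of this list was listed, at -2.11 on the log2 scale (SE 0.95, adjusted p 0.68 from edgeR).

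Of 10 regulators of lipid genes, nhr-80 and nhr-68 were listed at 20°C, and nhr-49 itself was not. The nuclear receptor gene nhr-80, whose product works with NHR-49 on fatty acid desaturase genes, rose from 103 ± 23.4 to 213 ± 34.0 normalized counts (SD, n = 4 each; log2 fold change 1.04, SE 0.22, adjusted p 0.036 from edgeR), a call that was not kept with TMM or DESeq2 size factors over the listed genes. For nhr-68, which regulates the propionate shunt, the log2 fold change was 0.52 (SE 0.16, adjusted p 0.13 from edgeR). The propionate shunt itself had 2 of 5 genes listed at 20°C, acdh-1 and ech-6 as given above. After heat shock the other shunt genes hphd-1 and alh-8 were listed at 0.26 and 0.22, neither of them called. Of the 6 genes of the canonical propionate pathway, mmcm-1 was listed at 20°C at -0.27 and was called only with DESeq2 size factors over the listed genes, among the scalings tried.

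Peroxisome biogenesis genes (prx) had higher means in fasted worms for each of the 4 of 11 that were listed at 20°C, under each scaling tried, and none was called. The nearest were prx-12, at 0.73 (SE 0.20, adjusted p 0.089 from edgeR), and prx-5, at 0.75 (SE 0.20, adjusted p 0.091 from edgeR). Of 4 genes that set the level of malonyl-CoA, the inhibitor of carnitine palmitoyltransferase I, only the acetyl-CoA carboxylase gene pod-2 was listed, at 0.36 on the log2 scale (SE 0.16, adjusted p 0.29 from edgeR), and its sign turned with DESeq2 size factors over the listed genes. None of the 3 genes of the electron transfer flavoprotein and its oxidoreductase, which take up the electrons of the acyl-CoA dehydrogenases, and neither of the other 2 catalase genes were listed.

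Markers of the tissues in a whole worm were counted in the same way. At 20°C, 5 of 10 intestinal markers were listed, 4 with higher and 1 with a lower mean, and 2 were called higher (act-5 at 1.03 and ifb-2 at 0.87 on the log2 scale). Their summed FPKM was 1169 to 1306 in fed and 1034 to 1366 in fasted libraries, which overlap. Of 8 body wall muscle markers 6 were listed, all with higher means under each scaling tried, and 2 were called (mup-2 at 1.38 and tnt-2 at 0.94), with a summed FPKM of 503 to 796 in fed and 816 to 1146 in fasted libraries. Of 8 hypodermal markers 3 were listed, 2 with higher and 1 with a lower mean, and 2 were called higher (col-19 at 1.69 and elt-3 at 1.03). The lower one, dpy-7, went from 91.7 ± 73.0 to 40.0 ± 18.3 normalized counts (SD, n = 4 each) and was not called. Summed over the 3, FPKM was 109 to 207 in fed and 380 to 583 in fasted libraries. Most of their normalized counts came from col-19, with means of 2865 in fed and 9273 in fasted worms. With TMM or DESeq2 size factors over the listed genes, tnt-2 and elt-3 were not called and the intestinal cpr-6 was called lower, and with the latter ifb-2 was not called.

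From the germ line and oocyte list, only egg-1 of 10 genes was listed at 20°C (476 to 612 FPKM in fed and 381 to 494 in fasted libraries), and from the sperm list only spe-11 of 10 (at most 0.658 FPKM). After heat shock, 1 intestinal, 1 muscle, 3 hypodermal and 1 sperm marker and no germ line marker were listed, none of them called. Of the 3 hypodermal markers, 2 had lower means there (dpy-7 at -2.66 and dpy-13 at -1.93) and 1 had a higher mean. The part of tissue composition in the values of the beta-oxidation genes was not tested.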

How the data were processed

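Whole N2 worms were measured by paired-end mRNA sequencing (poly-dT beads) in 4 groups of 4 libraries. For the raw counts, the authors aligned reads to WBcel235 (HISAT2 2.0.5) and assigned them to genes (featureCounts 1.5.0-p3). No source used here states whether strand was kept, and reads of overlapping genes on opposite strands may therefore be mixed. The deposited signal values, called normalized counts, are counts over a DESeq2 size factor per library (0.842 to 1.33 at 20°C, 0.919 to 1.24 for heat-shocked worms). Deposited FPKM values relate counts to gene length and library reads. The deposited p-values and fold changes are the authors' DESeq2 results, with the version not given in the sources used here. Only the p-values were used, to learn how the genes had been selected and over how many they had been adjusted.

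The number of reads per library was recovered from count, FPKM and length of genes with more than 50 counts. It is the total by which the FPKM values were scaled and may differ from all reads sequenced. The counts of all listed genes were tested with edgeR 4.0.16 (quasi-likelihood, legacy setting) in R 4.3.3, with the authors' size factors. Benjamini-Hochberg adjustment covered as many genes as the authors' own did (14982 at 20°C, 15456 after heat shock), unlisted genes counting as a p of 1. Genes were called at an adjusted p under 0.05. Limma was run on log2(FPKM + 1) and log2(FPKM + 0.1). The interaction was tested over the 410 genes of both tables and adjusted over them. Tests were tested on simulated data. Python 3.11.15, numpy 2.4.6, pandas 2.3.3 and scipy 1.17.1 were used for summaries and the exact permutation test, which used log2(normalized count + 0.5).

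Gene names came from RefSeq for 2638 of 2666 and 1418 of 1442 genes, and no per-sample column was left unmapped. Gene positions and gaps are the deposited ones. Shared exon lengths came from an Ensembl gene set of the same build, in which the bounds of each of the 23 genes differ. The members, lists and tests were chosen with earlier results of these data known. Named are acs-2, called genes, genes in both tables, and the 3 smallest p-values per family and comparison, with at most 2 other genes per list. The genes acs-5, acs-20, acdh-2, ech-6, acox-1.1 and acox-1.4 lie outside this rule and were named after their values were seen.

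Same-numbered libraries at 20°C deviated from their group means with correlations of 0.12 to 0.35 across 2452 genes, each above 0.1. The numbers were used as pairs in the replicate block, an alternative setting that was run after heat shock and for the interaction too. Fed replicate 1, however, correlated more with fasted replicate 2 (0.31). The main test was unpaired, and its p-values ignore any such pairing. The design itself gives no pairing. Alternatives were DESeq2 1.42.0, limma 3.58.1, TMM factors or DESeq2 size factors from the listed genes, library reads alone, a mean of at least 10 counts, adjustment over the listed genes, the replicate block and each library left out. The newer default of edgeR's quasi-likelihood test was added after seeing the data.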

Additional observations from a re-analysis of the deposited data

Results flagged for a closer look

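In 50 groups of 4 libraries, 3 libraries stood apart from the other 3 of their group by Dixon's criterion at the 95% level, a criterion that chance meets in about 1 of 20 groups. For acs-1 at 20°C, fed replicate 4 was the highest at 3150 normalized counts, against 2226 to 2328 in the other fed libraries. For the same gene, fasted replicate 3 was the lowest at 3293, against 4834 to 5004 in the other fasted libraries. Both libraries lie towards the other group, and the adjusted p of acs-1 from edgeR was lower without either of them. For cpt-3 at 20°C, fed replicate 1 was the highest at 12.9 normalized counts, against 3.91 to 4.98 in the other fed libraries, all of them values from few reads.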

How the results depend on the processing

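The fall of acs-2 and the rise of ech-7 at 20°C were called in all 19 settings, with a log2 fold change of acs-2 between -2.63 and -2.16 over the libraries left out. Against 5 genes called at 20°C, DESeq2 called 12 (8 higher, 4 lower), DESeq2 size factors over the listed genes 10 (1 higher, 9 lower), adjustment over the listed genes only 20 (10 higher, 10 lower), and the replicate block 8 (7 higher, 1 lower, with 25.7% of all listed genes). Adjustment over the listed genes only is no check on these genes, since every listed gene was selected by an unadjusted p of the authors under 0.05. Its share over all listed genes is not given here. With the block, acdh-9, acdh-2 and acs-5 gained a call and no call was lost. TMM over the listed genes called 4, ech-7 higher and acs-2, acs-22 and acox-1.2 lower. Over all genes, 368 were called against 877 by DESeq2, 686 with the block and 746 with DESeq2 size factors over the listed genes. Leaving out a library gave 2 to 5 calls, and acs-1 and acdh-1 were called in 11 and ech-9 in 9 of the 19 settings. The share of all listed genes called with a library left out is not given here, so these counts cannot be set against it. The causes were not tested. After heat shock, adjustment over the listed genes only, which has the same limit there, called 1 gene, acox-1.2, and leaving out a library gave 0 to 0 calls. The interaction called 0 of the 2 beta-oxidation genes tested for it in every setting run, the replicate block included.

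Signs turned at 20°C for ech-6 (-0.049) and acox-1.1 (-0.0063) with DESeq2 size factors over the listed genes. The interaction of acox-1.2 turned with the replicate block (-0.073) and ran from -0.43 to 0.48 over the libraries left out, and that of acdh-9 ran from -0.23 to 0.092. Of 359 values for the 20 genes other than acs-2 at 20°C, 294 kept their call and direction, 26 lost and 37 gained a call and 2 turned. After heat shock 71 of 72 values kept both. Same-numbered libraries after heat shock correlated at 0.089 to 0.34, not all above 0.1. The replicate block was run there all the same and changed no call. The alternatives for acs-2 after heat shock were not run, since it is not listed, and cpt-3 has no value with a mean of at least 10 counts. Depth limits ech-9 and cpt-3, which rest on few reads.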
